A study of Mus musculus with 16 samples.

Results

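Interleukin-1, tumour necrosis factor (TNF) and feedback genes of nuclear factor kappa B (NF-kB) were followed in microglia of the olfactory bulb, as 10 genes of the 57010 in the count table. The genes were taken by symbol, in a list written with earlier results of these data known. They were the cytokine genes Il1a, Il1b and Tnf, the feedback genes Nfkbia, Nfkbiz, Nfkbid and Tnfaip3, the NF-kB subunit genes Nfkb1 and Rel, and Cd83, which encodes a surface protein of activated myeloid cells. Microglia were isolated from the olfactory bulbs of mice aged 2 months with magnetic beads against CD11b, a surface marker of myeloid cells, and total RNA depleted of ribosomal RNA was sequenced. The 16 libraries fell into 4 groups of 4, namely WT females, WT males, APP-NL-G-F females and APP-NL-G-F males. WT animals were C57BL/6 J mice with the mouse App gene unchanged. APP-NL-G-F animals carried a knock-in, in which App itself is humanised in the amyloid-beta region and bears the NL (Swedish), G (Arctic) and F (Iberian) mutations, so that mutant App follows the expression of the endogenous gene in all cells and not in microglia alone. The labels name no treatment for any group. The question was how microglia of the olfactory bulb differed between the genotypes at this age.

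NF-kB is a family of dimeric transcription factors that inhibitory IkB proteins hold in the cytoplasm of resting cells. Interleukin-1, TNF and ligands of Toll-like receptors activate the IkB kinase IKK, the IkB protein is degraded, and the released dimers switch on cytokine genes together with the genes of their own inhibitors, which closes a feedback loop. In microglia these genes respond within minutes to hours to injury, infection and handling of the tissue.

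The start regions of the genes hold known control elements, and the stretches with a match are shown to place each gene. Windows of 250 bases before to 50 bases after the start, from RefSeq (table build GRCm38.p6), were given for 7 of the 10 genes, not for Nfkb1, Nfkbiz or Cd83, and were located in GRCm39 by exact match. Capitals mark TATAAA on the strand of the gene in Il1a, Il1b and Tnf, and the kappaB consensus, the DNA motif bound by NF-kB, on either strand in the others. Each stretch is written 5′ to 3′ on the strand of the gene and ends at the base before the start, at chr2:129151893-129151952 (minus strand) for Il1a, chr2:129213060-129213119 (minus strand) for Il1b, chr17:35420984-35421043 (minus strand) for Tnf, chr12:55539433-55539492 (minus strand) for Nfkbia, chr7:30121591-30121830 (plus strand) for Nfkbid, chr10:18891159-18891298 (minus strand) for Tnfaip3 and chr11:23720970-23721079 (minus strand) for Rel.
Il1a: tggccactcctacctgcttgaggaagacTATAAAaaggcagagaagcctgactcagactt
Il1b: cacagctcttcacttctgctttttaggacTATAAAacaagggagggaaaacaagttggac
Tnf: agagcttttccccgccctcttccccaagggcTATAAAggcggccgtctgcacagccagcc
Nfkbia: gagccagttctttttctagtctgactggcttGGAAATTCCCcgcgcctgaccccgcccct
Nfkbid: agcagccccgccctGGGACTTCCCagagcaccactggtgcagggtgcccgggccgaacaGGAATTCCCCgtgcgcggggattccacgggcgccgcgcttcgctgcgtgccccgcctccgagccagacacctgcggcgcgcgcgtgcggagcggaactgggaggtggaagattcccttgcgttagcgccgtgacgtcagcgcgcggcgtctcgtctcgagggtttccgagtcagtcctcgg
Tnfaip3: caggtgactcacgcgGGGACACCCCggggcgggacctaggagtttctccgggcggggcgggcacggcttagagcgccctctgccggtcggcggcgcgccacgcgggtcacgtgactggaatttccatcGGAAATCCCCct
Rel: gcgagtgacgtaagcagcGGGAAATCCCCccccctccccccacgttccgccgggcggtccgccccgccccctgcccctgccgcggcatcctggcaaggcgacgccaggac

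The 3 cytokine genes held TATAAA, the letters of a promoter element that positions RNA polymerase, with its first base between 25 and 35 bases before the start, against 1.75% of the 32851 windows and 2.12% of the 27025 genes with a window. The 4 feedback and subunit genes Nfkbia, Nfkbid, Tnfaip3 and Rel held the kappaB consensus within 250 bases before a start, against 3.90% of windows and 4.46% of genes. The 7 genes had 10 windows, because Nfkbid and Tnfaip3 had more than 1, and their further windows, not shown, held no match. The windows of Il1a, Il1b and Tnf held no kappaB match. Matches on both strands were counted for the kappaB consensus, and 3 overlapping matches in Rel were the same letters read on either strand or shifted by a base. Tnfaip3 also held a TATAAA that began 225 bases before its start, outside the stretch shown, and 12.4% of windows held TATAAA anywhere. The stretches of Il1a, Nfkbid, Tnfaip3 and Rel lie inside the span of the GENCODE gene model, which begins farther upstream. A match is a run of letters and not a measured binding site, and a window without a match says only that the letters are not in these 250 bases.

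All 10 genes passed the filter of at least 5 counts in at least 8 libraries, which left 18227 genes to test. Library totals ran from 9052932 to 18117286 counts with no difference between WT and APP-NL-G-F that passed (two-sided exact permutation within each sex, p = 0.936). Counts of the 10 genes in a single library ran from 140 for Il1b to 13023 for Nfkbia. The labels number 4 replicates in each group, and a reporting form of the study mentions technical replicates for sequencing, so that p-values measure the spread between these libraries, which may in part be technical. The labels also number the libraries from 1 to 16. Replicates 1 and 2 of every group came from libraries 1 to 8 and replicates 3 and 4 from libraries 9 to 16, a division that the labels do not call a batch but that moved with many values given here. Microglial markers such as P2ry12, Tmem119 and Cx3cr1 were high in every library, and the summed level of 12 such markers was 21962 to 26012 CPM (counts per library size after TMM normalization) in WT and 21909 to 25480 CPM in APP-NL-G-F libraries.

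Levels between genes were compared per kilobase of exon. In WT microglia the mean level was 346 ± 62.3 CPM per kb (SD, 8 libraries) for Nfkbia, the highest of the 10 genes. It was followed by Cd83 at 120 ± 44.1 CPM per kb, Nfkbiz at 90.5 ± 28.0, Tnf at 83.1 ± 33.6, Nfkbid at 64.1 ± 24.4, Il1a at 64.0 ± 21.2 and Tnfaip3 at 57.1 ± 15.1 CPM per kb. Nfkb1 at 14.9 ± 1.06, Rel at 14.1 ± 2.49 and Il1b at 11.3 ± 5.51 CPM per kb were lowest. Neighbours in the order from Cd83 to Tnfaip3 differed by less than the larger of their SDs, and so did neighbours among the 3 lowest genes, while the gap between Nfkbia and Cd83 was larger than either SD. With the longest transcript as the length, Nfkb1 had 39.9 CPM per kb, above Il1b and Rel. Tnfaip3 then had 79.6 CPM per kb, above Nfkbid at 73.9 and Il1a at 65.2. The order in the middle and among the lowest thus depends on the length used.

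Over both sexes 5 of the 10 genes were lower in APP-NL-G-F than in WT microglia: Tnf, Nfkbiz, Nfkbid, Il1a and Nfkbia. Their levels fell to between 0.443-fold and 0.609-fold of WT. The other 5 genes, Il1b, Tnfaip3, Nfkb1, Rel and Cd83, also had values below 0 on the log2 scale and did not pass. Genes were called at a Benjamini-Hochberg FDR below 0.1 with an absolute log2 fold change above 0.5, in edgeR's quasi-likelihood test with sex as an additive term. By this rule 4.3% of all tested genes were lower and 4.33% higher in APP-NL-G-F. The median log2 fold change was -0.64 over the 10 genes and -0.00 over all tested genes. In bulk RNA, fewer cells that express a gene and less RNA of it per cell cannot be told apart.

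**Figure D1:**
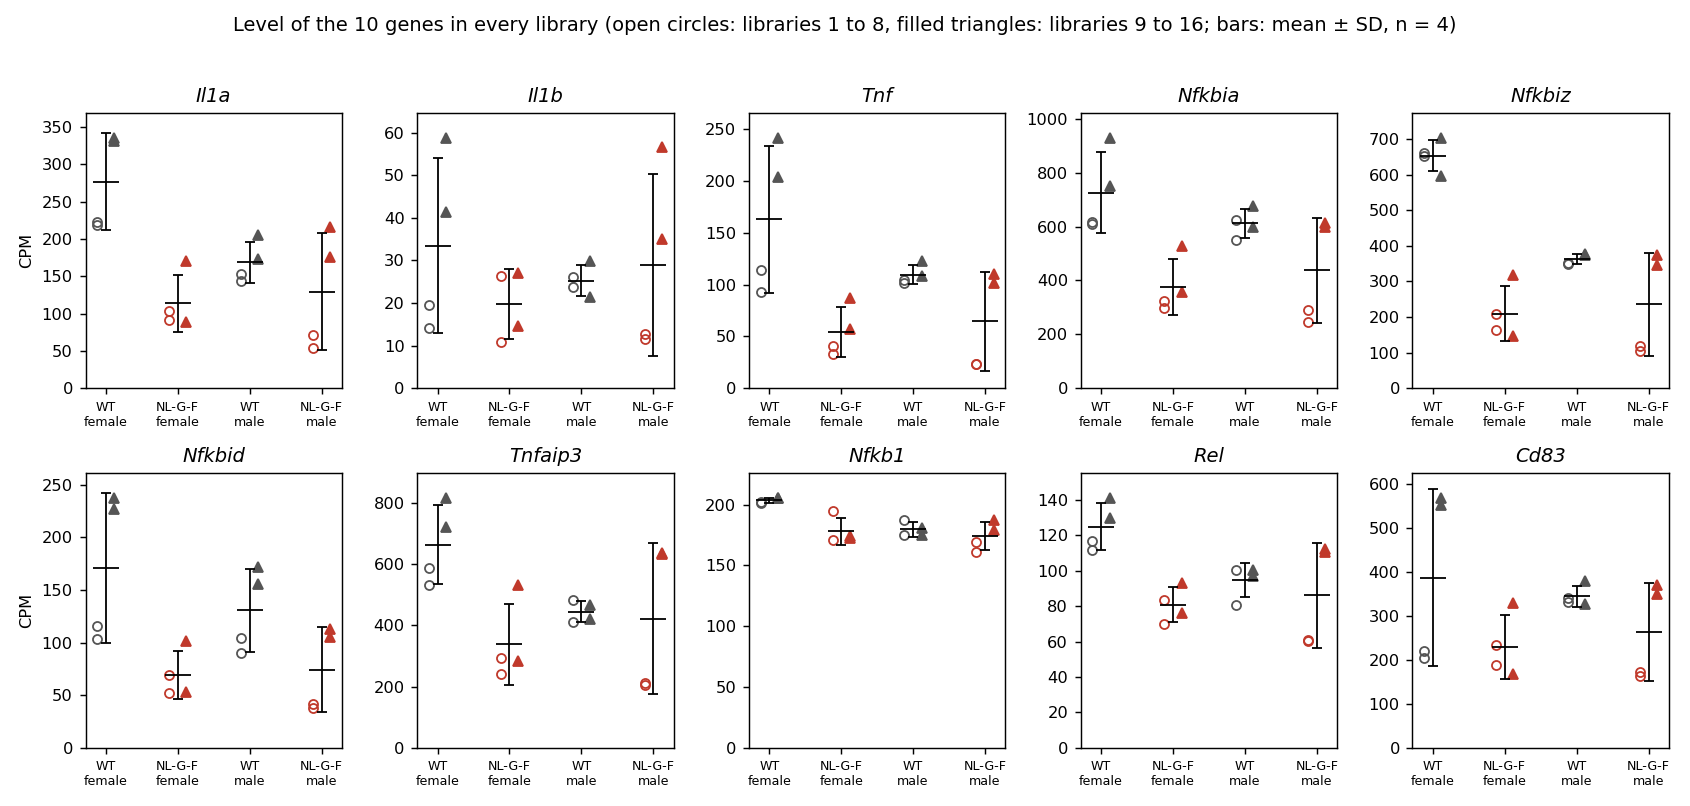
Level of each gene (CPM, linear axis from 0) in the 16 libraries by group, with open circles for libraries 1 to 8, filled triangles for libraries 9 to 16 and bars for the mean ± SD of 4 libraries. In males the 2 open circles of APP-NL-G-F lie below WT for Tnf, Nfkbia and Nfkbiz and the 2 triangles lie near the WT level.

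Tnf encodes the cytokine that gives the TNF pathway its name (chr17:35418357-35420983, minus strand, GRCm39). In WT its level was 114, 92.9, 241 and 204 CPM in female replicates 1 to 4 and 105, 102, 109 and 122 CPM in male replicates 1 to 4. In APP-NL-G-F it was 32.7, 40.7, 57.2 and 86.6 CPM in females and 22.9, 23.6, 101 and 110 CPM in males. The females did not overlap between genotypes. Among males, APP-NL-G-F replicates 1 and 2 were far below every WT library while replicates 3 and 4 lay near the level of the WT males. Tnf fell by 1.17 on the log2 scale (SE 0.32, edgeR FDR = 0.0274). An exact permutation test of genotype within sex gave a two-sided p of 0.00286, where 0.000408 is the smallest that 4900 splits allow.

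Il1a encodes interleukin-1 alpha, a cytokine that is active as its precursor and is released by injured cells (chr2:129140291-129152098, minus strand). Its level was 219, 223, 331 and 335 CPM in WT females and 91.0, 104, 89.3 and 170 CPM in APP-NL-G-F females. In males it was 143, 154, 205 and 173 CPM in WT and 71.5, 54.4, 176 and 216 CPM in APP-NL-G-F. The female groups were separate, and the highest APP-NL-G-F male exceeded every WT male. Il1a fell by 0.84 on the log2 scale (SE 0.25, edgeR FDR = 0.0460).

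Il1b encodes interleukin-1 beta, which the inflammasome activates by cleavage (chr2:129206490-129213059, minus strand). It had the lowest CPM of the 10 genes. Its level was 14.2, 19.6, 41.3 and 58.7 CPM in WT females and 10.96, 26.4, 14.5 and 27.1 CPM in APP-NL-G-F females. In males it was at 26.0, 23.6, 29.9 and 21.4 CPM in WT and at 12.7, 11.6, 34.96 and 56.6 CPM in APP-NL-G-F. The groups overlapped in both sexes. Its log2 fold change was -0.28 (SE 0.34, 95% interval -0.95 to 0.40, edgeR FDR = 0.690), an interval that holds both no difference and a fall as large as that of Il1a.

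Reads at both interleukin-1 genes can belong to other transcripts, because the annotation places Gm14023 on the opposite strand of Il1a and Il1b and Il1bos opposite Il1b, and the strand setting of the counting is not stated in the sources used here. Gm14023 was counted at 1.78 to 9.22 CPM per library, which was 2.99% of the mean level of Il1a and 19.2% of that of Il1b. Gm14023 was lower in APP-NL-G-F by a log2 fold change of -0.93 (edgeR FDR = 0.0157), and Il1bos by -1.42 (edgeR FDR = 0.00136). Il1bos was counted at 0.602 to 4.06 CPM, which was 8.6% of the mean level of Il1b. Gm36634, opposite Nfkbia, had at most 2 counts in a library. Gm43430 overlaps Nfkb1 on the same strand over 3897 bases, where strand cannot separate the reads. It was counted at 2.43 to 8.41 CPM, 3.08% of the mean level of Nfkb1, with a log2 fold change of 0.11 (edgeR FDR = 0.803).

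Among the feedback genes, Nfkbia encodes IkB-alpha, which binds NF-kB dimers and carries them back out of the nucleus (chr12:55535332-55539432, minus strand). Its level was 616, 610, 928 and 752 CPM in WT females, 549, 626, 597 and 677 CPM in WT males, 297, 324, 357 and 528 CPM in APP-NL-G-F females, and 248, 292, 615 and 599 CPM in APP-NL-G-F males. The APP-NL-G-F females lay below every WT library, and so did replicates 1 and 2 of the males, while replicates 3 and 4 of the males lay among the WT males. Nfkbia fell by 0.72 on the log2 scale (SE 0.18, edgeR FDR = 0.0178).

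Nfkbiz encodes IkB-zeta, a nuclear IkB protein that acts with NF-kB at secondary response genes (chr16:55631738-55659262, minus strand). Its level was 662, 651, 702 and 596 CPM in WT females, 353, 350, 375 and 377 CPM in WT males, 164, 208, 148 and 318 CPM in APP-NL-G-F females, and 118, 103, 345 and 374 CPM in APP-NL-G-F males. Of the 8 APP-NL-G-F libraries, 7 were below the lowest WT library. The WT females stood above all other libraries for this gene. Nfkbiz fell by 1.14 on the log2 scale (SE 0.26, edgeR FDR = 0.00890), with a two-sided exact permutation p of 0.00163.

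Nfkbid encodes a further nuclear IkB protein (chr7:30121150-30128171, plus strand). It was at 116, 103, 227 and 238 CPM in WT females and at 90.2, 105, 155 and 172 CPM in WT males, higher in replicates 3 and 4 in both sexes. In APP-NL-G-F it was at 52.5, 69.4, 52.8 and 101 CPM in females and at 37.5, 41.5, 105 and 113 CPM in males. All 8 APP-NL-G-F libraries were below the WT median, and 5 were below the lowest WT library. Nfkbid fell by 1.06 on the log2 scale (SE 0.26, edgeR FDR = 0.0135).

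Tnfaip3 encodes A20, a ubiquitin-editing enzyme that stops signalling from TNF and Toll-like receptors (chr10:18874201-18891405, minus strand). Its level was 531, 587, 817 and 723 CPM in WT females and 240, 294, 284 and 534 CPM in APP-NL-G-F females. In males it was 411, 482, 419 and 467 CPM in WT and 212, 204, 638 and 633 CPM in APP-NL-G-F, so the APP-NL-G-F males lay on both sides of the WT males. Its log2 fold change was -0.53 (SE 0.25, edgeR FDR = 0.201), which did not pass over both sexes.

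Of the subunit genes, Nfkb1, which encodes the p105 precursor of p50 (chr3:135290264-135397742, minus strand), was at 201, 203, 206 and 205 CPM in WT females and between 161 and 195 CPM in the other 12 libraries. Its log2 fold change was -0.12 with the smallest error of the 10 genes (SE 0.04, edgeR FDR = 0.0903), below the FDR threshold but under the fold threshold. Rel, which encodes the subunit c-Rel (chr11:23686847-23721264, minus strand), ranged from 80.7 to 141 CPM in WT with a median of 106 CPM and from 60.1 to 113 CPM in APP-NL-G-F with a median of 80.0 CPM. Its log2 fold change was -0.38 (SE 0.13, edgeR FDR = 0.0767), also under the fold threshold. Cd83 (chr13:43938251-43956634, plus strand) ranged from 205 to 569 CPM in WT and from 163 to 371 CPM in APP-NL-G-F, with medians of 336 and 211 CPM. Its 2 highest libraries were WT female replicates 3 and 4, whereas WT female replicates 1 and 2 lay at the level of the APP-NL-G-F libraries, and its log2 fold change of -0.57 did not pass (SE 0.23, edgeR FDR = 0.130).

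Across both sexes the ranges of WT and APP-NL-G-F overlapped for every one of the 10 genes, while 1.15% of all tested genes had every APP-NL-G-F library below every WT library. Of the 5 genes called, only Nfkbid held its call in each of the 30 alternative fits made. Tnf, Nfkbia and Nfkbiz lost it in 1, with libraries 9 to 16 alone, and Il1a lost it in 3, among them the fit without APP-NL-G-F female replicate 3 (edgeR FDR = 0.104). Without APP-NL-G-F male replicate 3 or 4, Tnfaip3 (edgeR FDR = 0.0575 and 0.0751) and Cd83 (edgeR FDR = 0.0714 and 0.0761) passed as well, and Cd83 also passed without WT female replicate 1 (edgeR FDR = 0.0975). With the division of libraries 1 to 8 from 9 to 16 as a term in the fit, Tnfaip3 (edgeR FDR = 0.0453) and Cd83 (edgeR FDR = 0.0347) were called lower too, as they were with the replicate number as a block (edgeR FDR = 0.0632 and 0.0446) and without a filter on low counts (edgeR FDR = 0.00257 and 0.000304). Limma voom called Tnfaip3 (FDR = 0.0827).

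Within females 7 of the 10 genes were lower in APP-NL-G-F, against 4.33% of all tested genes called lower in that comparison: Il1a, Tnf, Nfkbia, Nfkbiz, Nfkbid, Tnfaip3 and Rel. Nfkbiz fell by 1.64 on the log2 scale (SE 0.32, edgeR FDR = 0.00556) and Tnf by 1.59 (SE 0.44, edgeR FDR = 0.0417), the largest falls. Nfkbid fell by 1.31, Il1a by 1.29, Tnfaip3 by 0.97, Nfkbia by 0.95 and Rel by 0.63, with edgeR FDR values of 0.0287 to 0.0873. Il1b (-0.76), Cd83 (-0.75) and Nfkb1 (-0.19) did not pass. All 4 APP-NL-G-F females lay below all 4 WT females for 7 genes, with Nfkb1 in place of Tnfaip3, against 7.41% of all tested genes. The count of 7 rested on single libraries: it was 2 without WT female replicate 3, 2 without APP-NL-G-F female replicate 1 and 2 without APP-NL-G-F female replicate 3. Over all tested genes the count called lower in females, 790 with every library, moved as well when 1 library was left out. It ran from 483, without WT female replicate 1, to 889, without WT female replicate 4.

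Within males none of the 10 genes passed edgeR's quasi-likelihood test, where 0.165% of all tested genes were called lower. At an unadjusted p below 0.05 there was 1 gene, Nfkbid (log2 fold change -0.81, SE 0.36, edgeR FDR = 0.393), a share near the 11.7% of all tested genes, and DESeq2 and limma voom called 0. Without a filter on low counts edgeR called 3 lower, in a fit that called 448 genes lower in place of 30, or 1.14% of the genes it tested. The log2 fold changes ranged from -0.81 for Nfkbid to 0.21 for Il1b, with 9 of 10 below 0 and a median of -0.38. No APP-NL-G-F male group lay wholly below the WT males for any of the 10 genes, against 3.18% of all tested genes. The intervals were wide: for Tnf the 95% interval of the log2 fold change ran from -1.61 to 0.10, and for Nfkbiz from -1.25 to -0.00.

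**Figure D2:**
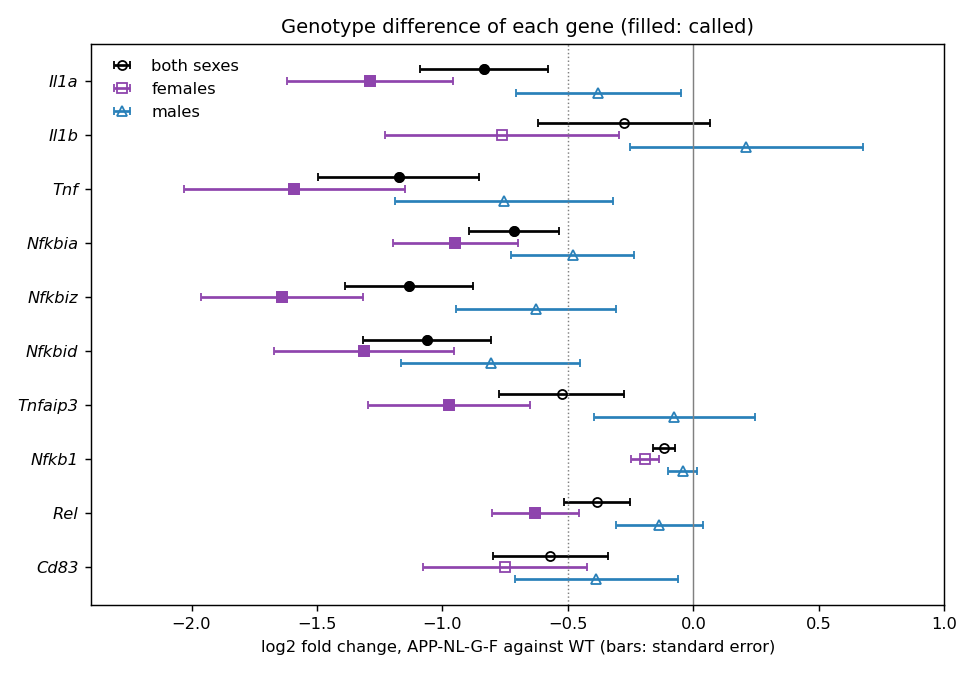
Log2 fold change of APP-NL-G-F against WT for each gene over both sexes, in females and in males, with bars for the standard error and filled symbols for genes called. Every female value is below 0, from -0.19 for Nfkb1 to -1.64 for Nfkbiz, and the male values lie nearer 0, up to 0.21 for Il1b.

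That genes passed in females and not in males does not show that the sexes differed. The genotype-by-sex difference, tested as a contrast of its own, called none of the 10 genes and 0.0274% of all tested genes, and DESeq2 and limma voom also called 0. Without a filter on low counts edgeR called 6 of the 10, in a fit that called 470 genes in place of 5, or 1.19% of the genes it tested. At an unadjusted p below 0.05 there was 1 gene, Nfkbiz, whose log2 fold change was lower in females by -1.01 (SE 0.45, edgeR FDR = 0.789), and 5.94% of all tested genes had such a p. All 10 differences were below 0, and the rest ranged from -0.15 for Nfkb1 to -0.97 for Il1b. Between the sexes, with genotype as an additive term, 0 of the 10 genes were higher in females, against 0.0274% of all tested genes called higher, and DESeq2 and limma voom called 0. The log2 fold changes of females against males ran from -0.07 for Il1b to 0.34 for Nfkbiz, and 1 gene, Nfkb1 at 0.11, had an unadjusted p below 0.05 (edgeR FDR = 0.714), against 6.56% of all tested genes. This term averages over the genotypes. In WT the mean level was higher in females than in males for every gene. In APP-NL-G-F it was lower in females for every gene but Nfkb1. Mean Nfkbiz was 116 and 64.7 CPM per kb in WT females and males, and 37.3 and 41.8 CPM per kb in APP-NL-G-F females and males. The sexes were not tested within a genotype.

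The first set of libraries (1 to 8) and the second set (9 to 16) gave unequal counts of calls in this family. The comparison of the sets was added after the values had been seen. Effects in each set came from 1 fit of all 16 libraries, with sex as a term and a shared estimate of the spread. In libraries 1 to 8, 7 of the 10 genes were lower in APP-NL-G-F, against 5.48% of all tested genes: Tnf fell by 1.81, Nfkbiz by 1.75, Il1a by 1.20, Tnfaip3 by 1.08, Nfkbid by 1.06, Nfkbia by 1.05 and Rel by 0.58 on the log2 scale (edgeR FDR from 0.000248 to 0.0136). In libraries 9 to 16, only Nfkbid was lower, by 1.06 (SE 0.20, edgeR FDR = 0.0538), against 0.329% of all tested genes. The others had log2 fold changes from -0.87 for Tnf to -0.10 for Nfkb1, all below 0, and 6 of the 10 genes had an unadjusted p below 0.05, against 8.97% of all tested genes.

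The difference between the genotype effects of the sets was tested directly, and edgeR called 0 of the 10 genes and 0% of all tested genes. At an unadjusted p below 0.05 there were 4 of the 10 genes, against 8.03% of all tested genes, with Nfkbiz at 1.07 (SE 0.37), Tnf at 0.93 (SE 0.33), Tnfaip3 at 0.92 (SE 0.32) and Nfkbia at 0.56 (SE 0.21), each nearer to 0 in libraries 9 to 16 and with an edgeR FDR of 0.587 to 0.589. For Nfkbid the difference was -0.00 (SE 0.29).

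Within APP-NL-G-F, 4 of the 10 genes were higher in libraries 9 to 16 than in 1 to 8, against 0.187% of all tested genes. Tnf rose by 1.61 (SE 0.24, edgeR FDR = 0.0357), Tnfaip3 by 1.17 (SE 0.23, edgeR FDR = 0.0599), Il1a by 1.09 (SE 0.24, edgeR FDR = 0.0985) and Nfkbia by 0.86 (SE 0.15, edgeR FDR = 0.0418) on the log2 scale. Mean Tnf was 30.0 ± 8.41 CPM in the first 4 APP-NL-G-F libraries and 88.8 ± 23.2 CPM in the last 4, and in WT 103 ± 8.63 and 169 ± 64.0 CPM. Within WT only Nfkbid passed, higher by 0.93 (SE 0.20, edgeR FDR = 0.0738), against 0.148% of all tested genes. What separated the sets is not given in the sources used here.

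**Figure D3:**
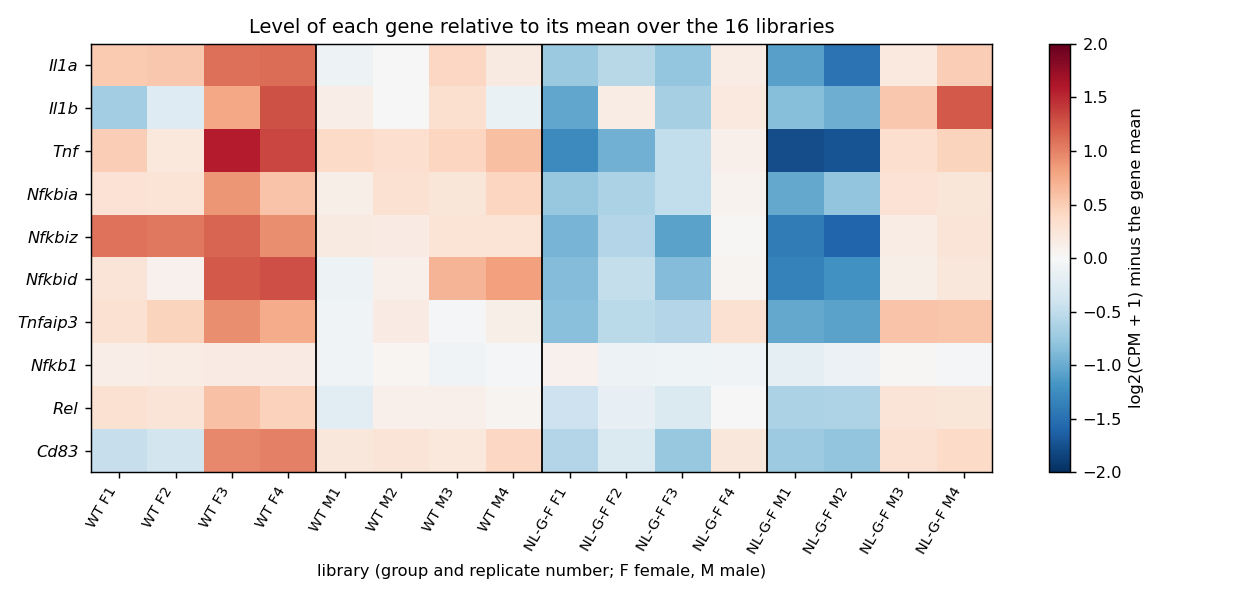
Level of each gene in each library, as log2(CPM + 1) minus the mean of the gene over the 16 libraries, with red above and blue below the mean and black lines between groups. APP-NL-G-F male replicates 1 and 2 are the lowest libraries for Tnf and Nfkbiz, WT female replicates 3 and 4 are the highest for Tnf and Nfkbid, and Nfkb1 varies least.

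The 10 genes varied together between libraries of the same group. Log2 CPM was centred on the 4 group means. The 45 pairs then had Pearson correlations from 0.22 to 0.97 over 16 libraries, with a median of 0.86. This is a description in which all genes of a library share its depth and preparation. Each group held libraries of both sets, so the difference between the sets stayed in these values. No value for pairs of other tested genes is given here. Whether such correlations are particular to this family was thus not tested. The highest value was that of Nfkbia with Tnfaip3 (0.97), followed by Tnf with Nfkbia (0.97) and Tnf with Tnfaip3 (0.95). All 9 pairs with Nfkb1 were the lowest, from 0.22 with Il1b to 0.50 with Rel. Outside the lists, the 5 genes most like the mean of the family by the same measure were Ccrl2 (0.98), Osm (0.98), Csrnp1 (0.98), Zfand5 (0.97) and Rasgef1b (0.97).

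Relations between 4 pairs of genes were tested across the 8 libraries of each genotype, 8 tests in all, with two-sided exact permutation p-values. The adjusted values printed beside r are over the 8 tests, and those beside rho are unadjusted. In APP-NL-G-F, Tnf and Nfkbia had a Pearson r of 0.971 (exact p = 4.96e-05, adjusted 0.000397) and a Spearman rho of 0.976 (exact p = 0.000397), and r was 0.946 without the 2 libraries farthest from the median of Tnf. In WT, r was 0.924 (exact p = 0.00280, adjusted 0.00747) and rho 0.738 (exact p = 0.0458), but r was 0.473 without WT female replicates 3 and 4, so the WT relation rests on those libraries. In APP-NL-G-F, Tnf and Nfkbia were both called higher in the second set than in the first, against 0.187% of all tested genes. Tnf was at 22.9 to 40.7 CPM in the first set and 57.2 to 110 CPM in the second. Nfkbia was at 248 to 324 CPM in the first set and 357 to 615 CPM in the second. The sets overlapped for Tnfaip3, at up to 294 CPM in the first and from 284 CPM in the second. The share of all tested genes with no overlap between the sets was not computed. The exact p exchanged libraries across the sets. Within each set there were 4 libraries a genotype, too few for a correlation. The part of the set difference in r was thus not tested, for this pair or the others.

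Nfkbia and Tnfaip3 had r = 0.985 in APP-NL-G-F (exact p = 0.000322, adjusted 0.00129, rho 0.952 with exact p = 0.00114, r 0.961 without the 2 farthest libraries). In WT, r was 0.871 (exact p = 0.00456, adjusted 0.00913, rho 0.762 with exact p = 0.0368) and 0.374 without WT female replicates 3 and 4. Il1b and Tnf had r = 0.861 in APP-NL-G-F (exact p = 0.0123, adjusted 0.0197, rho 0.881 with exact p = 0.00724, r 0.712 without the 2 farthest) and r = 0.774 in WT (exact p = 0.0287, adjusted 0.0328, rho 0.524 with exact p = 0.197, r 0.840 without the 2 farthest). After adjustment over the 8 tests the exact p of the Spearman rho was 0.225 for Il1b and Tnf in WT and 0.0611 for Tnf with Nfkbia in WT, Nfkbia with Tnfaip3 in WT and Tnf with Fos in APP-NL-G-F. At a threshold of 0.05 these rank correlations did not pass, and neither did that of Tnf with Fos in WT.

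Fos, an immediate early transcription factor gene that is no member of the family, was compared with Tnf. In APP-NL-G-F the Pearson r of Tnf and Fos was 0.838 (exact p = 0.0224, adjusted 0.0298, rho 0.738 with exact p = 0.0458, r 0.717 without the 2 farthest). In WT it was 0.138 (exact p = 0.738, adjusted 0.738, rho 0.0238 with exact p = 0.977) and -0.286 without WT female replicates 3 and 4. The WT libraries fell apart by sex and by set: Fos was at 2453 and 2644 CPM in WT female replicates 1 and 2, 1275 and 1328 CPM in replicates 3 and 4, and 449 to 680 CPM in males. After centring on the mean of each sex the WT value was -0.847. The WT libraries with the most Fos were thus not those with the most Tnf.

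**Figure D4:**
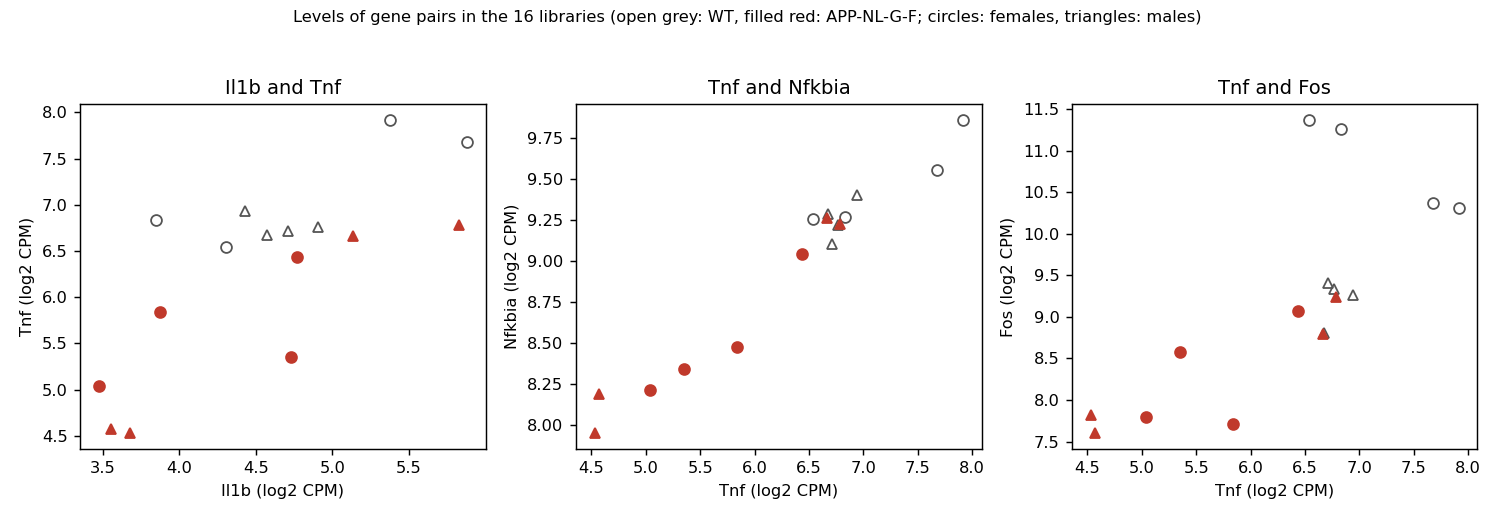
Levels (log2 CPM) of Il1b against Tnf, Tnf against Nfkbia and Tnf against Fos in the 16 libraries, with open grey symbols for WT, filled red symbols for APP-NL-G-F, circles for females and triangles for males. Tnf and Nfkbia follow 1 line in APP-NL-G-F (r = 0.971), and in WT the females with the most Fos are not those with the most Tnf.

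The rest of the pathway was described by lists that share no gene with the family. None of these pathway lists had a called gene higher in APP-NL-G-F over both sexes. Over all tested genes 4.3% were called lower and 4.33% higher in this comparison. Among 13 genes of the interleukin-1 family, its receptors and its processing, 3 fell and the median log2 fold change was -0.23: Nlrp3, the sensor of the inflammasome, by 0.67 (SE 0.15, edgeR FDR = 0.00839), the inflammatory caspase gene Casp4 by 0.52 (SE 0.14, edgeR FDR = 0.0288), and Il1r1, the signalling receptor, by 0.55 (SE 0.19, edgeR FDR = 0.0760). The call of Casp4 was lost in 10 of the 30 alternative fits and that of Il1r1 in 14. The receptor antagonist gene Il1rn was at 0.10 (SE 0.29) and the co-receptor gene Il1rap at 0.05 (SE 0.09), and neither passed. None of 13 genes of interleukin-1 and Toll-like receptor signal transduction (median -0.10) and none of 15 of TNF receptors and their signal transduction (median -0.08) was called over both sexes. Their log2 fold changes ran from -0.46 to 0.23 and from -0.499 to 0.23, so none reached the fold threshold of 0.5, whatever its FDR. The receptor genes Tnfrsf1a and Tnfrsf1b were both at -0.08 (SE 0.05 and 0.04).

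All 11 further genes of NF-kB subunits, IkB proteins and IKK had values below 0, with a median log2 fold change of -0.23, and 2 of them passed. Nfkbib, which encodes IkB-beta, fell by 0.72 (SE 0.13, edgeR FDR = 0.00162) and Nfkb2, which encodes the p100 precursor, by 0.58 (SE 0.10, edgeR FDR = 0.00178). Bcl3 was at -0.57 (SE 0.23), Nfkbie at -0.42 (SE 0.12), Rela at -0.23 (SE 0.06), Relb at -0.20 (SE 0.09) and the kinase gene Ikbkb at -0.01 (SE 0.05), and none of these passed both thresholds. Among 11 other genes of negative feedback, with a median of -0.04, only 1 fell, against 4.3% of all tested genes. This was Zc3h12a, by 1.05 (SE 0.22, edgeR FDR = 0.00650). It encodes Regnase-1, an endonuclease that degrades cytokine messenger RNA. Tnip1, a partner of A20, was at -0.10 (SE 0.05).

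Of 33 other NF-kB target genes 31 were tested, 8 fell, against 4.3% of all tested genes, and the median log2 fold change was -0.33. The 5 with the smallest p were Marcksl1 (-0.80, SE 0.18), the chemokine genes Ccl3 (-0.98, SE 0.22), Ccl4 (-0.77, SE 0.22) and Cxcl1 (-0.93, SE 0.27), and Ier3 (-1.01, SE 0.24), with edgeR FDR values of 0.00797 to 0.0379. The other 3 were Il10, Ccl2 and Plaur. Il10 was at 0.07 to 1.21 CPM a library and Cxcl1 at 0.37 to 1.73 CPM, where 3 counts stand for about 0.17 to 0.33 CPM. These 2 genes thus rest on few counts. Il6 was at -0.11 (SE 0.15) and did not pass. In females 9 of the 31 fell, and in males 0, while 4 of the 11 subunit and IkB genes fell in females and 0 in males. Over all tested genes 4.33% were called lower in females and 0.165% in males.

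**Figure D5:**
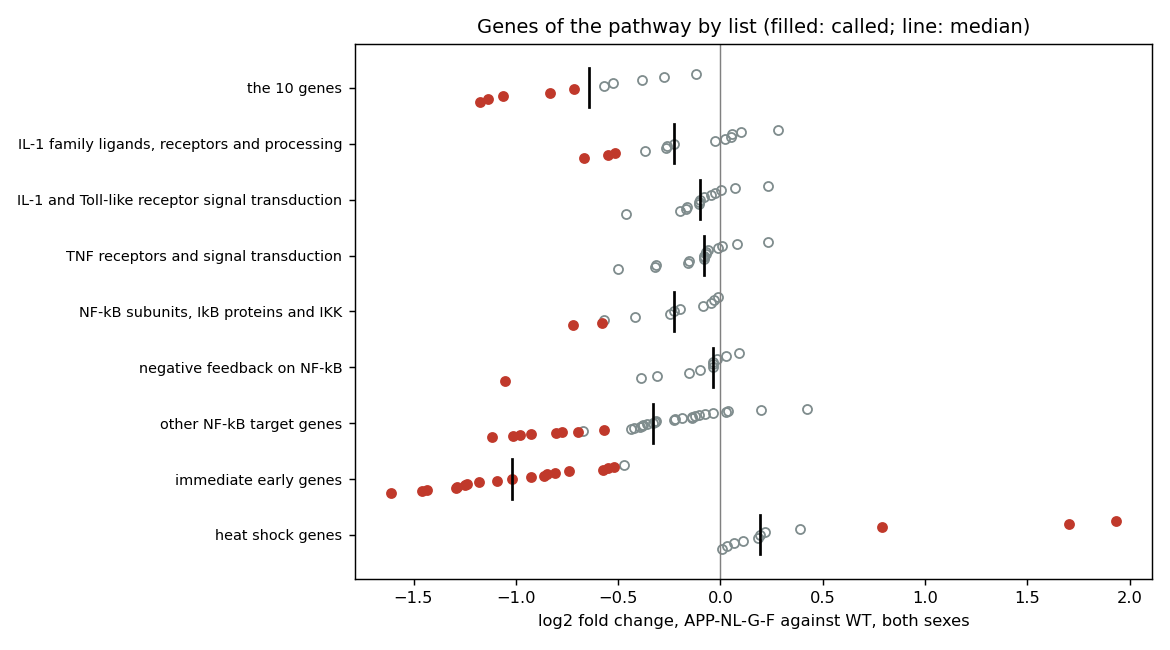
Log2 fold change of APP-NL-G-F against WT over both sexes for each tested gene of the 10-gene family and 8 further lists, with filled red points for genes called and black lines for the median of each list. The medians are -0.64 for the 10 genes, between -0.33 and -0.04 for the other lists of the pathway, -1.02 for immediate early genes and 0.19 for heat shock genes.

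Genes that respond to handling and stress of cells moved with the genotype as well. Of 19 immediate early genes 18 fell, against 4.3% of all tested genes, with a median log2 fold change of -1.02. Among them were Fos by 1.61 (SE 0.34, edgeR FDR = 0.00600), Btg2 by 1.44 (SE 0.22, edgeR FDR = 0.000723), Ier2 by 1.29, Egr1 by 1.29, Zfp36 by 1.25 and Jun by 0.85. Their summed level was 9008 to 19745 CPM in WT, with a median of 12916 CPM, and 4259 to 9307 CPM in APP-NL-G-F, with a median of 5526 CPM. Of 11 heat shock genes 3 rose, against 4.33% of all tested genes. These were Hspa1b by 1.93 (SE 0.66), Hspa1a by 1.70 (SE 0.50) and Hsph1 by 0.79 (SE 0.21), and the call of Hspa1b was lost in 13 of the 30 alternative fits. WT female replicates 1 and 2 stood apart, with Hspa1b at 4.50 and 3.23 CPM against 291 to 1252 CPM in the other WT libraries and Hspa1a at 22.4 and 26.2 CPM against 278 to 1082 CPM. The summed level of the list was 2570 to 6126 CPM in WT and 4703 to 6064 CPM in APP-NL-G-F. In males none of the genes of either list was called. The part of either list in the result on the 10 genes was not tested.

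Other myeloid cells and lymphocytes can also give cytokine reads. Summed marker levels were 23.6 to 36.4 CPM in WT and 25.7 to 35.1 CPM in APP-NL-G-F for 7 monocyte markers, 7.13 to 23.1 and 4.25 to 34.1 CPM for 10 neutrophil markers, 13.5 to 22.4 and 11.95 to 19.3 CPM for 6 dendritic cell markers, 4.67 to 9.43 and 6.11 to 11.9 CPM for 9 lymphocyte markers, and 376 to 619 and 470 to 751 CPM for 8 border macrophage markers. The ranges of the genotypes overlapped for each, no marker was at 0 in all libraries though only 5 neutrophil markers and 1 lymphocyte marker passed the filter on low counts, and no marker of these lists was called over both sexes. The lymphocyte sum was mostly Cd4, at a mean of 6.66 CPM. The highest neutrophil sum, 34.1 CPM, was that of APP-NL-G-F male replicate 3, and the other APP-NL-G-F libraries had at most 14.2 CPM. In females 8 of 10 endothelial markers were lower in APP-NL-G-F, against 4.33% of all tested genes, with summed levels of 115 to 264 CPM in WT females and 101 to 127 CPM in APP-NL-G-F females. In males all 10 endothelial markers had log2 fold changes above 0, with a median of 0.82 and 1 called higher, where 16 of all 18227 tested genes were. Their summed levels in males were 73.0 to 88.3 CPM in WT and 98.3 to 146 CPM in APP-NL-G-F. In females the dendritic cell marker Flt3 and 2 of 6 astrocyte markers were lower and 2 of 10 neuronal markers higher. Of all 18227 tested genes 790 were lower and 514 higher in females. The endothelial sum was highest in WT female replicates 1 and 2, which were not the libraries with the most Tnf. Over both sexes 1 of 6 oligodendrocyte markers was higher in APP-NL-G-F, against 4.33% of all tested genes. The part of these cells in the result on the 10 genes was not tested.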

How the data were processed

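The authors perfused the mice, digested the olfactory bulbs with papain, selected CD11b cells on beads, prepared stranded total RNA libraries and used STAR on read pairs, with GRCm39 plus human App as the genome and gencode vM32 as the gene models. The deposited table holds raw counts per gene, not normalized, in 1 column per library. Here a gene needed 5 or more counts in 8 or more of the 16 libraries, and counts were scaled by TMM and tested with edgeR 4.0.16 (glmQLFit and glmQLFTest, R 4.3.3), with Benjamini-Hochberg adjustment over 18227 genes. Contrasts within sexes and their difference came from a fit of the 4 groups. Contrasts within library sets and their difference came from a fit of genotype by set, with sex as a term. A log2 CPM carries a prior count of 2, and a standard error is the absolute log2 fold change over the square root of F. Levels, sums and fold changes came from the same counts. DESeq2 1.42.0, limma 3.58.1 (voom), other scalings, filters and covariates, and leaving out each library were the alternatives. The procedure was tested on simulated data.

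The 10 genes and all lists were chosen with earlier results of these data known. Named genes were the 10 genes, up to 5 called genes of smallest p in each other list, 15 receptors, kinases, subunits and similar genes set by name, and the 5 genes outside all lists most correlated with the 10. Genes first named beyond these were chosen after their values were seen. Positions and exon lengths came from the GRCm39 annotation gencode vM39, which matched 219 of 220 listed genes by symbol. Library totals of 9052932 to 18117286 counts limit precision for genes with few counts. Same-numbered libraries of the genotypes had correlations of -0.33 to 0.13 in their deviations from the group means, with 2 of 8 pairs over 0.1, so the numbers did not pair the libraries.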

Additional observations from a re-analysis of the deposited data

Results flagged for a closer look

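For Nfkb1, APP-NL-G-F female replicate 1 at 195 CPM stood above the other 3 libraries of its group, at 171 to 175 CPM, with a gap of 0.835 of the range of the group. This gap passed Dixon's critical value for 4 samples. It was the only one of 40 groups of 4 libraries (10 genes in 4 groups) that passed, and chance alone flags about 1 in 20 groups.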

How the results depend on the processing

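Over both sexes the log2 fold change of each of the 10 genes stayed below 0 in all 30 alternative fits. Leaving out 1 library gave from 4 genes called lower, when APP-NL-G-F female replicate 3 was missing, to 7, when APP-NL-G-F male replicate 3 or 4 was, and libraries 1 to 8 alone gave 8 and libraries 9 to 16 alone 1, with 57 genes lower in the whole table against 784. The fits of a set alone used only its own libraries, and the joint fit of both sets gave 7 and 1. By the FDR alone 1426 genes were lower. In females 2 to 7 of the 10 genes were called when a library was left out and 4 with a robust dispersion. The whole table had 483 to 889 genes lower in females when a library was left out. In males 3 were called without a filter on low counts and 1 with the library set (1 to 8 or 9 to 16) as a term, and without the filter 6 were called in the genotype-by-sex difference.

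Il1b in males, at 0.21, was at -0.059 with limma voom, -0.069 with the replicate block and -0.029 with the library set (1 to 8 or 9 to 16) as a term, and ran from -0.36 to 0.48 when a library was left out, Tnfaip3 from -0.35 to 0.15 and Rel from -0.29 to 0.00146. Over both sexes Il1rn ran from -0.10 to 0.30 and Ikbkb from -0.034 to 0.016. In libraries 1 to 8 alone Il1rn was at -0.062 and Il1rap at -0.090, in libraries 9 to 16 alone Tnfrsf1a was at 0.0036 and Ikbkb at 0.031, and with upper quartile scaling Ikbkb was at 0.000565. The cause of these changes was not tested. None of these values passed the test.

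Without the 2 libraries farthest on the x axis, r was 0.840 (WT) and 0.712 (APP-NL-G-F) for Il1b and Tnf, 0.473 (WT) for Tnf and Nfkbia, 0.374 (WT) for Nfkbia and Tnfaip3, and -0.286 (WT) and 0.717 (APP-NL-G-F) for Tnf and Fos, and -0.847 for Tnf and Fos in WT after centring on sex. With 6 libraries left, less can pass.

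Replicate numbers did not pair single libraries (2 of 8 correlated best with their own number), though replicates 1 and 2 and replicates 3 and 4 stand for the library sets. With the replicate block, which added Tnfaip3 and Cd83 over both sexes, 7, 7 and 0 genes were called lower over both sexes, in females and in males. The depth of 9052932 to 18117286 counts limits mainly Il1b, with 140 to 806 counts a library.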
